A study of Mus musculus with 32 samples.

Results

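Transcripts of mouse photoreceptors, the rods and cones that detect light in the outer retina, were compared between Per1-/-Per2Brdm1 mutants (KO) and wild type (WT) at circadian time (CT) 10, late in the subjective day. The 8 libraries at this time, 4 KO and 4 WT, were taken by their labels from a table of 32 libraries that also holds CT19, CT22 and CT1. KO mice were Per1-/- and carried the Brdm1 allele of Per2, which lacks part of the coding region, in all cells of the body, and no transgene or Cre is named in the labels. Both genotypes were 6-week-old males on the strain background C57BL/6/J x 129 SvEvBrd. Photoreceptors were isolated from frozen eyes by laser capture, so each library is a bulk sample of a tissue layer. The 4 times were placed by the submitters around the daily peak of outer segment phagocytosis, and which side of it CT10 is on is not said. Replicate numbers come from the titles, 2, 3, 4 and 5 for KO and 1, 2, 4 and 5 for WT, and values within a group are given in that order. The labels do not say which libraries come from the same animal, so p-values measure the spread between these libraries.

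The circadian clock of mammalian cells is a loop of transcription and repression. CLOCK and BMAL1 (encoded by Arntl) bind E-boxes and switch on the Per and Cry genes, whose proteins then repress CLOCK and BMAL1, and further arms of the loop act through ROR elements (the REV-ERB and ROR receptors) and through D-boxes (DBP, TEF, HLF and their antagonist NFIL3). In the retina the clock sets, among others, daily rhythms of dopamine and melatonin signalling and the shedding of outer segment disks.

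The promoters of 5 genes that were higher in KO are shown because they carry the elements through which this loop acts. They are RefSeq windows of 300 bases on GRCm38.p6 (250 before to 50 after the annotated start), printed 5′ to 3′ on the strand of the gene, with the matched motifs in capitals. The motifs searched, on both strands, were the E-box CACGTG, the D-box TTATGTAA or TTACGTAA and the cAMP response element TGACGTCA, and no matches overlap in these 5 windows. Ciart (chr3:95882179-95882478, minus strand) holds 3 E-boxes, 116, 58 and 44 bases before the start, and Per3 (chr4:151044616-151044915, minus strand) holds 2 D-boxes, 205 and 158 bases before it. Tef (chr15:81802423-81802722, plus strand), Bhlhe41 (chr6:145865371-145865670, minus strand) and Tpbgl (chr7:99627054-99627353, minus strand) hold 1 E-box each.
Ciart: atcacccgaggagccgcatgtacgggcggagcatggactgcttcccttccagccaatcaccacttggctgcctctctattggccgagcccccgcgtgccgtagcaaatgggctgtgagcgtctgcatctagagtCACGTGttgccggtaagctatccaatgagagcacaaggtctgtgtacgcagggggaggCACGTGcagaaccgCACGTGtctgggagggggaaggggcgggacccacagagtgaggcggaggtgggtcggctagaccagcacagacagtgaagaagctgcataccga
Per3: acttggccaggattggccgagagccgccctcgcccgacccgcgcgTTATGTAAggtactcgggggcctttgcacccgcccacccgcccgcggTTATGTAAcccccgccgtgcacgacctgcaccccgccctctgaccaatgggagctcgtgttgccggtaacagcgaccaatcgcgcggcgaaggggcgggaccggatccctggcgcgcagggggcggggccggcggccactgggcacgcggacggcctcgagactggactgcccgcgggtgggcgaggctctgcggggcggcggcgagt
Tef: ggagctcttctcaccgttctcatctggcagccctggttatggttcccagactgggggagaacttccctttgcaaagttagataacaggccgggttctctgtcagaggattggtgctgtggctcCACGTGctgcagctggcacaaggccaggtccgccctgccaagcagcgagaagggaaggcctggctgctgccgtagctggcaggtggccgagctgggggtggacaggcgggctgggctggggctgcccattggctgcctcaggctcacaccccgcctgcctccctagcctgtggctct
Bhlhe41: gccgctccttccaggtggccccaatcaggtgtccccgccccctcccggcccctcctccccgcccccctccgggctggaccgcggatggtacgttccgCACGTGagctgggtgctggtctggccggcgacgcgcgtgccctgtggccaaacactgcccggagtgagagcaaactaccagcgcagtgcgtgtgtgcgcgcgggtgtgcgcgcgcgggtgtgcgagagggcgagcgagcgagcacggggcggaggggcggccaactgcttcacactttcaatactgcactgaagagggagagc
Tpbgl: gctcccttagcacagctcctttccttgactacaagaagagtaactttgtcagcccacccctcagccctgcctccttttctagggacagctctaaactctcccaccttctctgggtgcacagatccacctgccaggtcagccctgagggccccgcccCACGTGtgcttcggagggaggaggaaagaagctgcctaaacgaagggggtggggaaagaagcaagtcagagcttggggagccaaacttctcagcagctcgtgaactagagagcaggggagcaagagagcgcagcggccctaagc
Of 27025 promoters of the same length, 7.24% hold the E-box, 1.06% the D-box and 1.88% the cAMP response element. Promoters were listed for 19 of the 24 clock genes, and the E-box was found in 5 of the 12 that were higher in KO (Ciart, Bhlhe41, Cry1, Per1 and Tef), in 0 of the 2 that were lower and in 0 of the 5 that were not called. A match is a description of the letters in these windows and says nothing of binding.

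The targeted genes were read first. Per2 (chromosome 1, 91415982 to 91459324, GRCm38) had 207, 184, 207 and 209.8 CPM in KO, against 28.4, 15.2, 25.3 and 15.4 CPM in WT. Per1 (chromosome 11, 69095217 to 69109960) had 203, 181, 174 and 195 CPM in KO, against 101, 104, 96.5 and 105 CPM in WT. The KO libraries lay above the WT libraries for both genes, Per2 by 9.59-fold and Per1 by 1.85-fold. These values count reads over the whole gene, including exons outside the deleted parts, so they do not tell alleles apart and check nothing about the deletions. CPM is a gene's share of the reads of a library, after library sizes were scaled by the trimmed mean of M values (TMM). Genes were called at a Benjamini-Hochberg adjusted p under 0.05 in edgeR's quasi-likelihood test over all 32 libraries. Every adjusted p is from this fit unless another tool, covariate, scaling or set of libraries is named. Those with a covariate, scaling or set of libraries named are from refits with the same edgeR test.

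The libraries held 27890898 to 34582742 counts at CT10, and no pair of replicates agreed within counting noise (their chi-square was 13.3 to 35.5 for each degree of freedom). The rod phototransduction genes summed to 118864 to 147246 CPM in KO and 134198 to 172106 CPM in WT, and markers of other cells of the eye moved with genotype. The inner retina level (mean log2 CPM of the bipolar, amacrine and Müller glia markers) was 4.03, 3.92, 4.27 and 3.88 in KO, against 3.44, 2.61, 2.86 and 3.18 in WT. The lens level was 4.35, 5.34, 3.01 and 1.86 in KO, against 6.49, 5.48, 5.46 and 7.38 in WT. Neither the inner retina nor the lens level overlapped between the genotypes, the inner retina level being higher and the lens level lower in KO. WT replicates 2, 4 and 5 had the lowest inner retina levels of all 32 libraries, and WT replicate 5, whose title carries the letter R where the other 7 carry L, had the highest lens level of the 8. In a bulk sample, more or fewer cells of a type and more or less RNA per cell cannot be told apart.

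**Figure D1:**
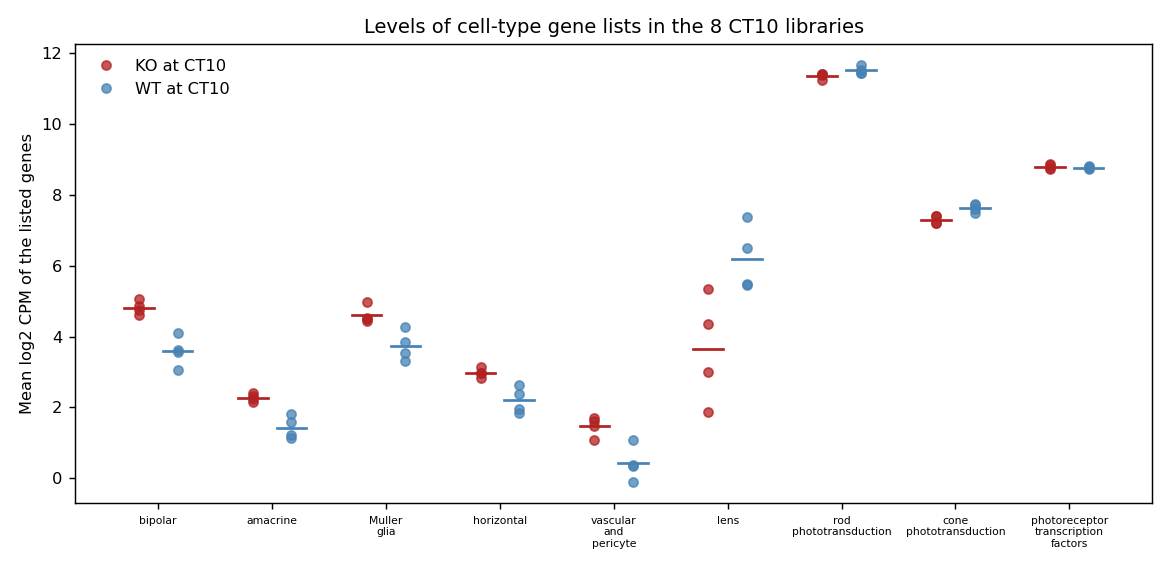
Mean log2 CPM of the genes of 9 lists in each of the 8 libraries at CT10, KO in red left of WT in blue, with a bar at the mean of 4. Bipolar, amacrine, Müller glia and horizontal cell lists lie higher in KO and the lens list lower. The rod list (11.37 in KO, 11.52 in WT) and the cone list (7.30 and 7.64) lie lower in KO without overlap. The photoreceptor transcription factors lie at 8.80 in KO and 8.77 in WT.

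In all, 1825 of 17871 tested genes (10.2%) were called at CT10, 1286 higher (7.2%) and 539 lower (3.02%) in KO, and 3502 genes (19.6%) had libraries that did not overlap between the genotypes. Of the called genes, 1487 were called at none of the other 3 times, at which 928 (CT19, 5.19%), 273 (CT22, 1.53%) and 282 (CT1, 1.58%) genes were called. The count was 946 without WT replicate 2, 1037 without KO replicate 4 and 1210 without WT replicate 4. Scaled to the rod and cone phototransduction genes in place of TMM, 3157 genes were called, of which 95.3% were higher in KO, against 70.5% under TMM, and the median log2 fold change of all genes moved to 0.21 from -0.01. This scaling sets the mean log level of the rod and cone lists equal in all libraries. It thereby shifts log2 fold changes upward, and lower members of these lists toward 0, by the setting itself.

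Genes were separated by whether they varied with the inner retina markers in the 24 libraries of the other times, from which the fold changes at CT10 are not computed. A gene was said to follow the inner retina level at a Pearson r of 0.5 or more, after group means were taken out, and to run against it at -0.5 or less. Among 1975 genes that followed it, 753 were higher in KO and 3 lower, with a median log2 fold change of 0.75. Among 13956 genes that did neither, 517 were higher and 449 lower, with a median of -0.02. Among 1940 genes that ran against it, 16 were higher and 87 lower, with a median of -0.13. The called genes that followed the inner retina level were thus almost all higher in KO, and those that varied neither with nor against it went in both directions in similar numbers. For the lens level, 34 of the 601 genes that followed it were higher and 12 lower, with a median of 0.05. This is 7.65% called, beside 10.2% of all genes.

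With the inner retina level as a covariate 220 genes (1.23%) were called, and with the inner retina and lens levels together 50 (0.28%), 49 of them called in the same direction without covariates (37 higher, 12 lower). The median standard error of the log2 fold change was 0.283 with both covariates, against 0.186 without. Of these 49 genes, 40 had calls of one direction at all 4 times, 45 followed neither level, and 11 belong to the clock list. The covariates move with genotype at CT10, so a gene that lost its call with them cannot be assigned to another cell type on that ground. As covariates, the levels include every marker of their lists. A smaller fold change of such a marker with them is thus partly built in.

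**Figure D2:**
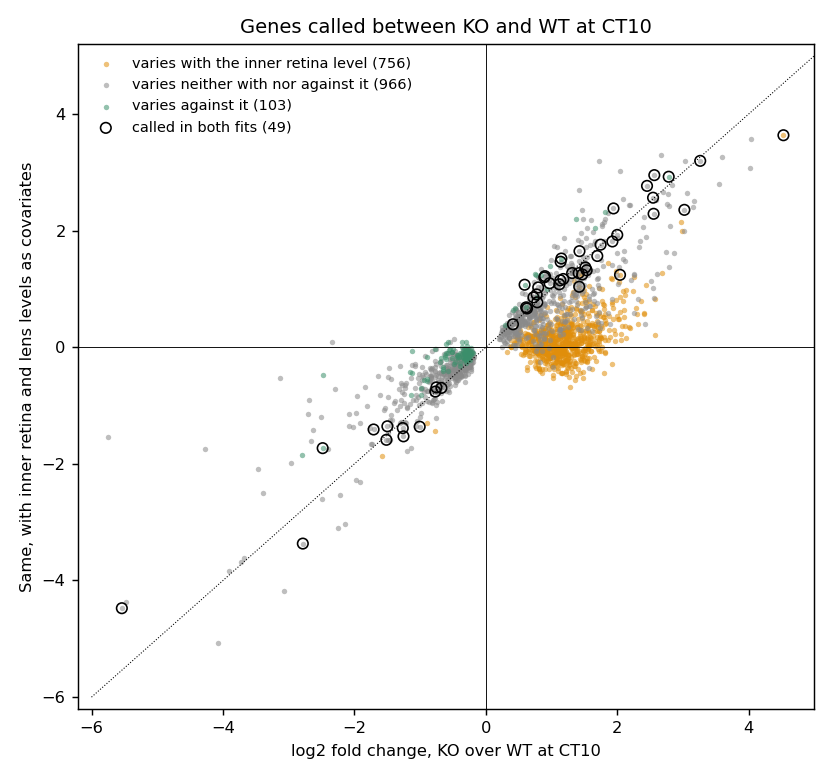
Log2 fold change of KO over WT for the 1825 genes called at CT10 (x axis) and the same with the inner retina and lens levels as covariates (y axis), coloured by whether a gene varied with, against or neither with nor against the inner retina level in the 24 libraries of the other times. Genes varying with it (orange, 756) cluster near 0 on the y axis, and the 49 circled genes, called in both fits, lie close to the diagonal.

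Of 24 clock genes 17 were called (70.8%, against 10.2% of all genes), with 14 higher and 3 lower in KO and a median log2 fold change of 0.69 against -0.01 over all genes. Of the repressors, Cry2 had 152, 139.6, 159 and 161 CPM in KO, against 61.3, 49.4, 59.4 and 59.8 CPM in WT. Cry1, its paralogue, had 90.4, 84.5, 90.2 and 99.1 CPM in KO, against 60.8, 69.2, 61.8 and 66.1 CPM in WT. Ciart, which represses CLOCK and BMAL1 (its 3 E-boxes are shown above), had 12.6, 16.5, 14.6 and 14.2 CPM in KO, against 3.11, 1.39, 2.68 and 2.61 CPM in WT. In each of these the KO libraries lay above all WT libraries, by 2.66-fold (log2 fold change 1.41, SE 0.08, adjusted p = 1.1e-12), 1.41-fold (log2 fold change 0.50, SE 0.07, adjusted p = 2.59e-05) and 5.91-fold (log2 fold change 2.56, SE 0.22, adjusted p = 2.44e-09). Per3, the third Period gene, had 361, 335, 331 and 291 CPM in KO, against 145, 131, 173 and 145 CPM in WT, also without overlap (log2 fold change 1.15, SE 0.17, adjusted p = 5.57e-05). The E-box repressors Bhlhe41 and Bhlhe40, known as DEC proteins, were higher by 1.65-fold (log2 fold change 0.72, SE 0.10, adjusted p = 1.8e-05) and 2.86-fold (log2 fold change 1.52, SE 0.24, adjusted p = 8.06e-05). Bhlhe40 followed the inner retina level and was not called with both covariates (0.81, adjusted p = 0.459). Nor was Cry1 (0.52, adjusted p = 0.052).

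The D-box activators Dbp, Tef and Hlf, paralogous bZIP factors, were higher together. Dbp had 133, 118, 138 and 148 CPM in KO, against 57.7, 38.7, 44.8 and 53.0 CPM in WT. Tef had 442, 429.8, 417 and 407 CPM in KO, against 199, 168, 207 and 208 CPM in WT. Hlf had 152, 145, 147 and 165 CPM in KO, against 65.5, 43.8, 54.6 and 63.4 CPM in WT. None of the 3 overlapped between the genotypes, and the log2 fold changes were 1.47 (SE 0.13), 1.12 (SE 0.07) and 1.42 (SE 0.11). Nfil3, the repressor that competes for the same D-boxes, was lower, with 8.95, 6.59, 9.32 and 6.18 CPM in KO, against 16.5, 19.4, 17.3 and 20.9 CPM in WT (log2 fold change -1.25, SE 0.19, adjusted p = 5.41e-05). Thus the activators of this element were higher and its repressor lower in the same libraries. Exons of Dbp, Tef and Bhlhe41 overlap genes on the other strand (Sphk2, Gm17597 and Gm43909), whose reads cannot be told apart here because the strand setting is not given.

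Of the arm that acts through ROR elements, the REV-ERB repressors Nr1d1 and Nr1d2 were higher by 1.59-fold (log2 fold change 0.67, SE 0.10, adjusted p = 5.79e-05) and 1.61-fold (log2 fold change 0.69, SE 0.08, adjusted p = 1.7e-06). With both covariates they stood at 0.51 (adjusted p = 0.314) and 0.60 (adjusted p = 0.052), and Nr1d1 shares exons with Thra on the other strand. Arntl, which encodes BMAL1 and is a REV-ERB target, was lower, with 95.6, 90.5, 93.1 and 93.4 CPM in KO, against 161, 159.8, 154 and 161 CPM in WT. The KO libraries lay below every WT library (log2 fold change -0.77, SE 0.06, adjusted p = 7.01e-10). Rorb, a ROR receptor needed for rod development, had 759.7, 900.1, 859 and 935 CPM in KO, against 747, 601, 766 and 499 CPM in WT (log2 fold change 0.40, SE 0.12, adjusted p = 0.0296), with overlapping groups. Its call was lost on leaving out any of 5 libraries (adjusted p 0.0681 to 0.141), those other than KO replicate 2 and WT replicates 1 and 4.

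The 7 clock genes that were not called included Clock (-0.11), Rora (-0.08), Csnk1d (-0.09), Csnk1e (0.23), Npas2 (0.69) and Fbxl21 (-0.75), given as log2 fold changes with standard errors between 0.06 and 0.42. The signs of Clock, Rora and Csnk1d turned under rod and cone scaling (0.11, 0.13 and 0.14). Csnk1e was called under rod and cone scaling (0.45, adjusted p = 0.00183), in the 8 CT10 libraries alone (0.24, adjusted p = 0.0415) and by DESeq2 (0.23, adjusted p = 0.0493). With both covariates 11 clock genes were called, namely Per1, Per2, Per3, Cry2, Ciart, Bhlhe41, Dbp, Tef, Hlf, Arntl and Nfil3. Their call and direction also held under every other alternative and without any single CT10 library.

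**Figure D3:**
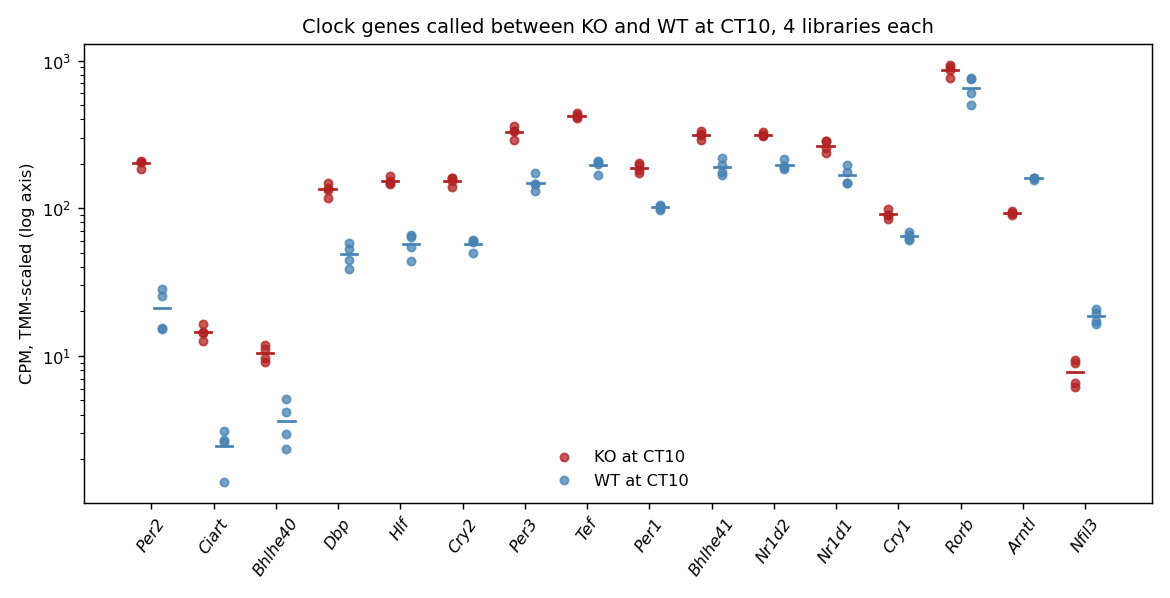
CPM (log axis) of 16 of the 17 clock genes called at CT10 in the 4 KO libraries (red, left) and 4 WT libraries (blue, right), with a bar at the mean. Of those plotted, 14 were higher in KO and Arntl and Nfil3 lower, and the groups overlap in Rorb.

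Outside the clock, the highest fold change at CT10 among the named genes belonged to Tpbgl, a leucine-rich repeat membrane protein gene (chromosome 7, 99624082 to 99627103). Tpbgl had 18.4, 8.70, 14.3 and 24.1 CPM in KO, against 0.682, 0.773, 0.821 and 0.553 CPM in WT (log2 fold change 4.53, SE 0.39, adjusted p = 4.82e-09), and all of its KO libraries lay far above WT. It followed the inner retina level and shares exons with Gm10605 on the other strand, and with both covariates it stood at 3.64 (adjusted p = 0.00091). Col4a3 and Col4a4, chains of basement membrane collagen IV encoded head to head on chromosome 1 (82586921 to 82722059 and 82448423 to 82586849), were both higher. Col4a3 had 232, 285, 171 and 251 CPM in KO, against 44.1, 64.0, 30.1 and 33.1 CPM in WT (log2 fold change 2.45, SE 0.25, adjusted p = 2.02e-07). Col4a4 had 84.8, 90.6, 73.1 and 83.2 CPM in KO, against 26.9, 37.4, 31.2 and 28.1 CPM in WT (log2 fold change 1.42, SE 0.20, adjusted p = 2.36e-05). Neither collagen gene overlapped between the genotypes.

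Other genes that were higher with and without both covariates, and followed neither marker level, were Rasl10b, Gzmm, Baiap2, Eif3b and Txndc16. Rasl10b, a Ras-family GTPase, had 111, 93.5, 103 and 100.1 CPM in KO, against 25.3, 21.2, 28.4 and 26.9 CPM in WT (log2 fold change 2.0, SE 0.13, adjusted p = 2.96e-12). Gzmm, a granzyme protease, had 178, 152, 159 and 186 CPM in KO, against 48.1, 31.5, 53.0 and 45.0 CPM in WT (log2 fold change 1.93, SE 0.21, adjusted p = 5.14e-07). Eif3b, a subunit of the translation initiation factor eIF3, had 180.5, 132, 174 and 168 CPM in KO, against 65.4, 65.1, 64.6 and 68.6 CPM in WT (log2 fold change 1.31, SE 0.09, adjusted p = 6.02e-12). The WT libraries of Eif3b lay within 64.6 to 68.6 CPM, below all KO libraries. Baiap2, an actin scaffold, was higher by 3.24-fold (log2 fold change 1.70, SE 0.19, adjusted p = 3.04e-07). Txndc16, a thioredoxin-domain protein, was higher by 2.26-fold (log2 fold change 1.18, SE 0.08, adjusted p = 5.43e-12), and this difference was larger at CT10 than at the other times (by 0.56, SE 0.09, adjusted p = 0.00033).

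In the other direction, Hcls1, a cortactin-related actin regulator of blood cells, had 16, 15.2, 12.2 and 14.2 CPM in KO, against 80.4, 77.0, 89.8 and 74.5 CPM in WT (log2 fold change -2.48, SE 0.20, adjusted p = 1.65e-09). Fscn2, the actin-bundling fascin of photoreceptors (chromosome 11, 120361534 to 120368168), had 56.2, 53.8, 57.5 and 38.6 CPM in KO, against 126, 174, 137 and 145 CPM in WT (log2 fold change -1.50, SE 0.16, adjusted p = 1.53e-07). Ccn4, a secreted matricellular protein, had 39.9, 62.8, 49.2 and 52.5 CPM in KO, against 153, 149.6, 149 and 132 CPM in WT (log2 fold change -1.51, SE 0.13, adjusted p = 3.5e-09). For all 3 every WT library lay above every KO library. Ndrg1, a stress-responsive gene, was lower by 1.60-fold (log2 fold change -0.68, SE 0.07, adjusted p = 1.54e-07), Itpr2, an inositol trisphosphate receptor of the endoplasmic reticulum, by 2.40-fold (log2 fold change -1.26, SE 0.18, adjusted p = 1.69e-05), Ammecr1 by 1.68-fold (log2 fold change -0.75, SE 0.09, adjusted p = 3.42e-06), Zfp39 by 2.01-fold (log2 fold change -1.01, SE 0.19, adjusted p = 0.000626) and Ccdc63 by 3.27-fold (log2 fold change -1.71, SE 0.20, adjusted p = 7.67e-07). Each of these was called with both covariates as well. Exons of Txndc16 overlap Gpr137c on the other strand, and those of Ndrg1 overlap Gm17035 and Gm2895.

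The targeted loci lie on chromosomes 1 and 11. Apart from Per1 and Per2, these chromosomes held 13.8% of all tested genes, 16.5% of the genes called at CT10 and 19.1% of the 47 called also with both covariates (3 on chromosome 1 and 6 on chromosome 11, among them Col4a3, Col4a4, Rasl10b, Baiap2, Fscn2 and Zfp39). Within 20 Mb of either locus lay 4.41%, 5.81% and 10.6% (5 genes). The part of sequence linked to the targeted alleles in these differences was not tested.

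The remaining genes at the extremes were not called with both covariates. Lonrf3 was higher by 11.7-fold (log2 fold change 3.55, SE 0.55, adjusted p = 9.35e-05), the histamine receptor gene Hrh3 by 5.01-fold (log2 fold change 2.32, SE 0.36, adjusted p = 7.77e-05) and the netrin receptor gene Unc5c by 4.38-fold (log2 fold change 2.13, SE 0.35, adjusted p = 0.000202). Reln, a secreted guidance protein, the transporter Slc7a14 and Grik1, a kainate receptor subunit of bipolar cells, were higher by 4.31-fold, 4.31-fold and 4.21-fold, all followed the inner retina level, and none was called with both covariates (log2 fold changes 0.64, 0.52 and 0.36). Fabp7, a fatty acid binding protein of glia, had 0.209, 0.158, 0.305 and 0.215 CPM in KO, against 1.63, 3.31, 3.21 and 3.50 CPM in WT (log2 fold change -3.68, SE 0.50, adjusted p = 1.12e-05), and kept its size with both covariates (-3.62, adjusted p = 0.0513). Kif4, a kinesin of cell division that shares exons with Pdzd11 on the other strand, had 2.09, 7.66, 3.97 and 3.23 CPM in KO, against 29.7, 31.1, 31.1 and 26.1 CPM in WT (log2 fold change -2.79, SE 0.41, adjusted p = 5.41e-05). Also among the 10 lowest were Bfsp2 (a lens filament protein, -5.74), Arhgdib (a regulator of small GTPases, -2.22), Col5a3 (a fibrillar collagen chain, -1.91), Dnah9 (an axonemal dynein whose exons overlap Gm12296, -1.76) and Hdc (the histamine-forming enzyme, -1.73), with Lynx1 (a modulator of nicotinic receptors) at -1.57. Leaving out single libraries ended the calls of Bfsp2 (4 libraries, adjusted p up to 0.0866), Arhgdib (6, up to 0.131), Hdc (5, up to 0.0776) and Lynx1 (4, up to 0.126).

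Among 22 genes of the rod cascade 3 were lower and 0 higher (13.6% called, median log2 fold change -0.17, range -0.83 to 0.39). Of 13 cone genes 2 fell and 0 rose (15.4% called, median -0.28). Of all genes 10.2% were called, 3.02% lower and 7.2% higher, so the share that matches these lower calls is 3.02%. In the rod list 19 genes lay below 0 and 3 above, and in the cone list 10 and 3. By edgeR 7 rod and 4 cone genes had an unadjusted p under 0.05. Guca1b, which encodes a calcium sensor that regulates guanylate cyclase, had 929, 938, 916 and 1001 CPM in KO, against 1669.8, 2081, 1294 and 1696 CPM in WT (log2 fold change -0.83, SE 0.15, adjusted p = 0.000642). Pde6b, the catalytic subunit of the rod phosphodiesterase, had 3466, 3386, 3033 and 3302 CPM in KO, against 4142, 4799.8, 4333 and 4578 CPM in WT (log2 fold change -0.44, SE 0.09, adjusted p = 0.00165). Arr3, cone arrestin, had 215, 349, 250.2 and 270.3 CPM in KO, against 519, 545, 811 and 478 CPM in WT (log2 fold change -1.12, SE 0.28, adjusted p = 0.0119). The KO libraries lay below the WT libraries in all 3, and Arr3 was no longer called without WT replicate 4 (-0.92, adjusted p = 0.0568). Rgs9bp, the anchor of the RGS9 complex that shuts off transducin, was lower by 1.23-fold (log2 fold change -0.29, SE 0.10, adjusted p = 0.045), a call lost without any 1 of the 8 libraries (adjusted p 0.0549 to 0.136). Pde6h, the inhibitory cone phosphodiesterase subunit, was lower by 1.93-fold (log2 fold change -0.95, SE 0.29, adjusted p = 0.0373), a call lost without any of 5 libraries (adjusted p 0.051 to 0.132). Exons of Pde6h overlap Arhgdib on the other strand, which was lower as well. None of these 5 was called with both covariates, and the calls of Rgs9bp and Pde6h were also lost under rod and cone scaling (-0.07 and -0.74, adjusted p = 0.672 and 0.0547). That scaling is computed from these lists, so smaller changes of their lower members under it are part of the setting.

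Of 24 genes of the outer segment, cilium and disks, Fscn2 alone was called (median -0.10), and of 7 photoreceptor retinoid cycle genes 0 were called by edgeR (median -0.16; 1 at an unadjusted p under 0.05, 1 by DESeq2, 0 by limma-voom). Of 15 photoreceptor transcription factors 2 rose, Rorb and Casz1 (13.3%, beside 10.2% called and 7.2% higher of all genes, median 0.01). Casz1, a zinc finger factor of photoreceptor fate, had 805, 981, 834 and 912 CPM in KO, against 718, 642, 753 and 638 CPM in WT (log2 fold change 0.36, SE 0.09, adjusted p = 0.013). The groups of Casz1 did not overlap, but its call was lost without KO replicate 3 or WT replicate 2 (adjusted p = 0.0542 and 0.0672), and its exons overlap Gm13205.

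At the photoreceptor ribbon synapse, where glutamate is released onto bipolar and horizontal cells, 2 of 23 genes rose and 4 fell (26.1% called, against 10.2% of all genes). Rims2, an active zone scaffold, had 289, 362, 272 and 303 CPM in KO, against 491, 515, 411 and 527 CPM in WT (log2 fold change -0.66, SE 0.10, adjusted p = 3.52e-05). Cacnb2, a calcium channel subunit, had 311, 311, 335 and 316 CPM in KO, against 400.2, 458, 382 and 414 CPM in WT (log2 fold change -0.38, SE 0.08, adjusted p = 0.00289). Both were lower in KO without overlap, and none of the 6 called genes was called with both covariates (Rims2 -0.51, adjusted p = 0.275, Cacnb2 -0.49, adjusted p = 0.165). Elfn2, a trans-synaptic adhesion protein, was higher by 1.71-fold (log2 fold change 0.78, SE 0.16, adjusted p = 0.00142). Snap25, a vesicle fusion protein, and Lrit2 were called at log2 fold change 0.30, SE 0.10, adjusted p = 0.0455 and at log2 fold change -0.28, SE 0.09, adjusted p = 0.0488, and each lost its call without any of 7 single libraries (adjusted p up to 0.168 and 0.167). Cacnb2 and Lrit2 were also not called under rod and cone scaling (-0.15 and -0.06, adjusted p = 0.348 and 0.628). Cacnb2 shares exons with Gm10848 and Gm13269.

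**Figure D4:**
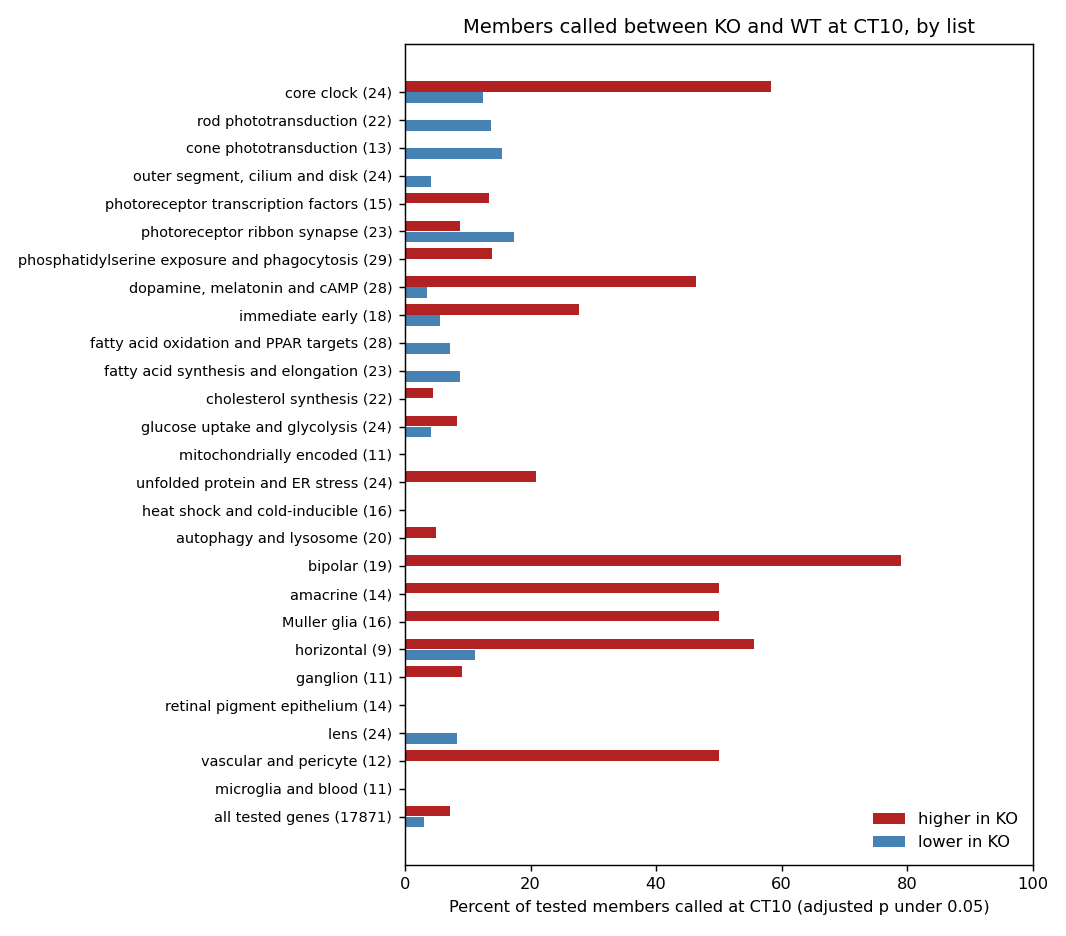
Percent of the tested members of 26 lists of over 8 tested genes (number in parentheses) called higher (red) or lower (blue) in KO at CT10, with all 17871 tested genes at the bottom. Bipolar (15 of 19) and clock genes (14 of 24) have the most members higher, and rod and cone lists have lower members only.

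Of 28 tested genes of dopamine, melatonin and cAMP signalling 13 rose and 1 fell (50.0%, beside 10.2% called and 7.2% higher of all genes). Their median was 0.53 against -0.01 over all genes, and 10 of the 28 followed the inner retina level. Drd4, the dopamine receptor by which photoreceptors lower cAMP (chromosome 7, 141292006 to 141296464), had 606, 433, 617 and 665 CPM in KO, against 366, 297, 315 and 339 CPM in WT (log2 fold change 0.82, SE 0.11, adjusted p = 6.14e-06). It followed neither level, its groups did not overlap, and with both covariates it stood at 0.63 (adjusted p = 0.176). Akap5, an anchor of protein kinase A, had 10.8, 10.6, 12.7 and 10.2 CPM in KO, against 5.01, 4.05, 3.0 and 2.95 CPM in WT (log2 fold change 1.56, SE 0.21, adjusted p = 1.02e-05). Pde8b, a cAMP phosphodiesterase, had 240.0, 200.1, 229 and 227 CPM in KO, against 140.4, 171, 166 and 136 CPM in WT (log2 fold change 0.55, SE 0.08, adjusted p = 4.2e-05), and shares exons with Gm48420.

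The receptors Drd2 and Drd1, the cyclase Adcy8 and the kinase subunit Prkar1b followed the inner retina level. They were higher by 2.70-fold (log2 fold change 1.43, SE 0.27, adjusted p = 0.000864), 3.34-fold (log2 fold change 1.74, SE 0.35, adjusted p = 0.00145), 3.93-fold (log2 fold change 1.97, SE 0.36, adjusted p = 0.000494) and 1.98-fold (log2 fold change 0.99, SE 0.19, adjusted p = 0.000846), and with both covariates stood at 0.30, 0.18, 0.81 and 0.16. Pde10a, another phosphodiesterase, followed neither level and was higher by 2.06-fold (log2 fold change 1.04, SE 0.27, adjusted p = 0.0118), although limma-voom did not call it (1.02, adjusted p = 0.0569). Adcy1, the calcium-stimulated cyclase of photoreceptors, was the member that fell, with 621, 599, 474 and 477 CPM in KO, against 667, 790.0, 688 and 793 CPM in WT (log2 fold change -0.44, SE 0.13, adjusted p = 0.027). Its call was lost without any of 4 libraries (adjusted p up to 0.0925) and under rod and cone scaling (-0.21, adjusted p = 0.312). With the inner retina covariate 3 of the 28 were called, and each of the 14 called members lost its call with both.

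Immediate early genes, which respond to calcium and cAMP within minutes, included 5 of 18 that rose and 1 that fell (33.3% called, against 10.2% of all genes, median 0.54). None of the 18 followed the inner retina level, but with it as a covariate only Nr4a1 was called (1.59, adjusted p = 0.0174), and with both covariates none of the 6 was (Nr4a1 1.42, adjusted p = 0.224, Junb 0.75, adjusted p = 0.462). Nr4a1, an orphan nuclear receptor (chromosome 15, 101254269 to 101274795), had 67.5, 44.2, 53.7 and 79.2 CPM in KO, against 19.9, 19.6, 21.6 and 23.8 CPM in WT (log2 fold change 1.52, SE 0.24, adjusted p = 0.000137). Junb, an AP-1 subunit, had 29.6, 18.6, 19.5 and 25.2 CPM in KO, against 13.5, 13.7, 12.5 and 14.3 CPM in WT (log2 fold change 0.78, SE 0.17, adjusted p = 0.00304). Fos, its partner, had 58.8, 18.3, 24.7 and 47.5 CPM in KO, against 14.8, 12.2, 11.1 and 20.6 CPM in WT (log2 fold change 1.34, SE 0.34, adjusted p = 0.0123). Nr4a1 and Junb did not overlap, while KO replicate 3 of Fos (18.3 CPM) lay below WT replicate 5 (20.6 CPM). Dusp1, a phosphatase of MAP kinases, and Ier2 were called at log2 fold change 0.71, SE 0.19, adjusted p = 0.0176 and at log2 fold change 0.65, SE 0.18, adjusted p = 0.0183, with overlapping groups. Fosb was lower (log2 fold change -0.64, SE 0.21, adjusted p = 0.0458). The calls of Fos, Dusp1, Ier2 and Fosb were lost without single libraries (2, 4, 4 and 6 of the 8, adjusted p up to 0.0689, 0.0867, 0.103 and 0.171) and in a fit of the 8 CT10 libraries alone (adjusted p = 0.0836, 0.0544, 0.0905 and 0.125). Junb shares exons with Prdx2 and Dusp1 with Ergic1 on the other strand.

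Of 28 genes of fatty acid oxidation and PPAR targets 2 fell and 0 rose (7.14%, beside 10.2% called and 3.02% lower of all genes), and both catalyse steps of mitochondrial oxidation. Acadm, medium-chain acyl-CoA dehydrogenase (chromosome 3, 153922357 to 153944632), had 63.8, 76.3, 59.4 and 63.2 CPM in KO, against 112, 154, 114 and 134 CPM in WT (log2 fold change -0.97, SE 0.11, adjusted p = 1.04e-06). Cpt1a, which loads fatty acids for entry into mitochondria, had 261, 299, 228 and 228 CPM in KO, against 392, 513, 408 and 501 CPM in WT (log2 fold change -0.84, SE 0.13, adjusted p = 4.96e-05). The KO libraries of both lay below all WT libraries. With both covariates neither was called (Acadm -0.47, adjusted p = 0.308, Cpt1a -0.38, adjusted p = 0.616), and with the inner retina covariate alone Acadm was (-0.66, adjusted p = 0.0109) and Cpt1a was not (-0.56, adjusted p = 0.0886). Of 23 fatty acid synthesis and elongation genes 2 fell (8.7%, beside 10.2% called and 3.02% lower of all genes), the malic enzyme Me1 (log2 fold change -0.58, SE 0.13, adjusted p = 0.00325) and the elongase Elovl2 (log2 fold change -0.34, SE 0.08, adjusted p = 0.01). Neither was called with the inner retina covariate (adjusted p = 0.0963 and 0.367). Elovl2 was not called without WT replicate 2 (adjusted p = 0.0529) or under rod and cone scaling (-0.12, adjusted p = 0.314), and exons of Me1 overlap A330041J22Rik.

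Of 24 glucose uptake and glycolysis genes 3 were called (12.5%, near the 10.2% of all genes). Of these 2 rose, the monocarboxylate transporter chaperone Bsg (log2 fold change 0.48, SE 0.10, adjusted p = 0.0021) and lactate dehydrogenase Ldha (log2 fold change 0.36, SE 0.11, adjusted p = 0.0239), and 1 fell, the transporter Slc16a1 (log2 fold change -0.31, SE 0.10, adjusted p = 0.0352). None of the 3 was called with the inner retina covariate. Ldha lost its call without any of 3 libraries (adjusted p up to 0.11) and Slc16a1 without any of 6 (up to 0.128) and under rod and cone scaling (-0.09, adjusted p = 0.446). Of 22 cholesterol genes 1 was called (4.55%). Of 20 autophagy and lysosome genes only Tfeb was called (log2 fold change 0.51, SE 0.15, adjusted p = 0.0284), the transcription factor of lysosome genes, and leaving out any of 6 single libraries ended this call (adjusted p up to 0.106). Among 11 mitochondrially encoded and 16 heat shock and cold-inducible genes 0 were called by edgeR (medians -0.02 and 0.02; 0 and 1 at an unadjusted p under 0.05, 0 by DESeq2 or limma-voom).

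Genes of the unfolded protein response, which answers to misfolded protein in the endoplasmic reticulum, included 5 of 24 that rose and 0 that fell (20.8%, beside 10.2% called and 7.2% higher of all genes, median 0.12). None of the 24 followed the inner retina level, but none of the 5 was called with it as a covariate (Herpud1 0.64, adjusted p = 0.0518) or with both (Herpud1 0.51, adjusted p = 0.448). Herpud1, a component of the degradation machinery of the endoplasmic reticulum, had 50.0, 43.2, 62.8 and 56.7 CPM in KO, against 28, 29.8, 32.4 and 29.8 CPM in WT (log2 fold change 0.83, SE 0.12, adjusted p = 3.76e-05). The transcription factor Xbp1 had 88.8, 71.9, 93.9 and 105 CPM in KO, against 71.4, 60.1, 69.9 and 54.6 CPM in WT (log2 fold change 0.49, SE 0.15, adjusted p = 0.0296). Sdf2l1, Manf and Ddit3 were called at log2 fold change 0.60, SE 0.17, adjusted p = 0.0214, at log2 fold change 0.43, SE 0.13, adjusted p = 0.0381 and at log2 fold change 0.35, SE 0.10, adjusted p = 0.0214. Herpud1 kept its call without any single library, while those of Xbp1, Sdf2l1, Manf and Ddit3 were lost without 5, 5, 7 and 4 of the 8 (adjusted p up to 0.111, 0.117, 0.114 and 0.0902). Manf and Ddit3 overlap exons on the other strand (4930524O07Rik and Dcaf1, and Gm4189 and Mars).

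Of 29 tested genes of phosphatidylserine exposure and phagocytosis, the process by which the pigment epithelium takes up shed outer segments, 4 rose and 0 fell (13.8%, beside 10.2% called and 7.2% higher of all genes). The chemokine Cx3cl1 and the receptors Axl and Lrp1 were higher by 2.69-fold (log2 fold change 1.43, SE 0.33, adjusted p = 0.00571), 2.36-fold (log2 fold change 1.24, SE 0.33, adjusted p = 0.0138) and 2.30-fold (log2 fold change 1.20, SE 0.31, adjusted p = 0.0142), and all 3 followed the inner retina level. Axl and Lrp1 each lost their call without 2 single libraries (adjusted p up to 0.0568 and 0.0663, KO replicate 4 in both). Their log2 fold changes with both covariates were -0.19, 0.23 and -0.12, and with the inner retina covariate alone Axl stood at -0.09 and Lrp1 at -0.18. The flippase Atp11a, which returns phosphatidylserine to the inner leaflet, followed neither level and had 789, 748, 733 and 697 CPM in KO, against 592, 598, 614 and 567 CPM in WT (log2 fold change 0.32, SE 0.10, adjusted p = 0.0348). Its groups did not overlap, yet its call was lost without any of 7 libraries (adjusted p 0.0593 to 0.107). Nor was Atp11a called with the inner retina covariate (0.50, adjusted p = 0.0585), the lens covariate (0.22, adjusted p = 0.194) or both (0.36, adjusted p = 0.536).

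Many markers of inner retinal cells were higher in KO. Of 19 bipolar cell markers 15 rose and 0 fell (median 1.34), of 14 amacrine markers 7 rose (0.92), of 16 Müller glia markers 8 (0.93) and of 9 horizontal cell markers 5 rose and 1 fell (1.08). The shares called were 78.9%, 50.0%, 50.0% and 66.7%, beside 10.2% called and 7.2% higher of all genes. Nyx, the nyctalopin of ON bipolar dendrites, had 11.1, 8.10, 10.1 and 9.27 CPM in KO, against 2.52, 1.95, 2.43 and 2.46 CPM in WT (log2 fold change 2.04, SE 0.21, adjusted p = 8.32e-08), and was the bipolar marker still called with both covariates (1.24, adjusted p = 0.0376). Grm6, the glutamate receptor of the same dendrites, had 42.0, 32.7, 51.3 and 31.5 CPM in KO, against 18.1, 5.04, 8.99 and 7.34 CPM in WT (log2 fold change 1.99, SE 0.35, adjusted p = 0.00052). Trpm1, the channel it controls, had 73.2, 64.1, 75.4 and 46.5 CPM in KO, against 36.3, 8.29, 16.2 and 16.3 CPM in WT (log2 fold change 1.75, SE 0.42, adjusted p = 0.00824). All KO libraries lay above all WT libraries in these 3, though WT replicate 1 had more than any other WT library in Grm6 and Trpm1. Grm6 shares exons with Gm12660, and Trpm1 was not called in a fit of the 8 CT10 libraries alone (adjusted p = 0.0527). The inner retina covariate is a mean that includes Nyx and the other bipolar markers. Calls of these markers with it, kept or lost, are therefore no independent result.

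Among Müller glia markers Kcnj10, a potassium channel, was higher by 2.31-fold (log2 fold change 1.21, SE 0.20, adjusted p = 0.000236), Apoe by 1.94-fold (log2 fold change 0.95, SE 0.19, adjusted p = 0.00134) and glutamine synthetase Glul by 1.73-fold (log2 fold change 0.79, SE 0.23, adjusted p = 0.0291). Glul, whose exons overlap Teddm2, stood at -0.22 with the inner retina covariate and -0.12 with both, and lost its call without any of 4 single libraries (adjusted p up to 0.136). Glul is itself part of the inner retina level. The amacrine enzyme Gad1, which makes GABA, was higher by 2.16-fold (log2 fold change 1.11, SE 0.24, adjusted p = 0.00304) and the horizontal cell calcium buffer Calb1 by 2.72-fold (log2 fold change 1.45, SE 0.31, adjusted p = 0.00332). Of 12 vascular and pericyte markers 6 rose (median 1.18), with the endothelial junction protein Cldn5 at 2.19, 1.64, 2.35 and 1.36 CPM in KO, against 0.504, 0.340, 0.321 and 0.0922 CPM in WT (log2 fold change 2.57, SE 0.47, adjusted p = 0.000594) and the pericyte gene Rgs5 higher by 3.24-fold (log2 fold change 1.70, SE 0.40, adjusted p = 0.00629). The vascular and pericyte share called was 50.0%, beside 10.2% called and 7.2% higher of all genes. Of 11 tested ganglion cell markers 1 was called (9.09%, near the 10.2% of all genes). Of 14 pigment epithelium markers, 11 of microglia and blood, 4 of astrocytes and 3 of cornea and iris, 0 were called by edgeR. At an unadjusted p under 0.05 these lists held 0, 7, 1 and 2 genes, and of microglia and blood markers, with a median of 1.09, DESeq2 called 2 and limma-voom 3, while both called 0 of the other 3 lists.

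Lens markers lay below WT in all 24 genes, with a median log2 fold change of -1.96, but 2 were called. This is 8.33%, beside 10.2% called and 3.02% lower of all genes. By edgeR 13 of the 24 had an unadjusted p under 0.05. Bfsp2 had 0.557, 1.17, 0.214 and 0.0718 CPM in KO, against 19.8, 12.2, 10.7 and 67.0 CPM in WT (log2 fold change -5.74, SE 1.66, adjusted p = 0.0268). Crygn, a crystallin, had 0.418, 0.252, 0.0916 and 0.180 CPM in KO, against 1.51, 0.989, 0.393 and 3.23 CPM in WT (log2 fold change -2.70, SE 0.82, adjusted p = 0.0323). WT replicate 5 was far the highest library in both, and the standard errors were large. Without WT replicate 5 both lost their call (-4.80 and -2.04, adjusted p = 0.0773 and 0.143), as they did without each of 3 KO libraries. Of the 24 lens markers DESeq2 called 2 and limma-voom 0 (Bfsp2 adjusted p = 0.123, Crygn adjusted p = 0.0842). With no filter on low counts neither was called (adjusted p = 0.0508 and 0.0838). The summed CPM of the lens list was 417 to 3484 in KO and 3015 to 11647 in WT, so the lens sums of the genotypes overlapped although the means of the logs did not.

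Whether the genotype difference at CT10 departed from that at the other times was tested directly, as the difference at CT10 minus the mean difference at CT1, CT19 and CT22. For this 775 genes were called (4.34%), 361 higher (2.02%) and 414 lower (2.32%), and 481 of them were also called between KO and WT at CT10. In 299 of the 481 the sign at CT10 was opposite to the mean of the other times. Without single libraries the count was 404 (KO replicate 2), 409 (KO replicate 4), 410 (WT replicate 2), 439 (KO replicate 5) and 459 (WT replicate 5), and under rod and cone scaling it was 498, of which 75.7% were higher, against 46.6% under TMM. It was 341 with the inner retina covariate, 45 with both covariates and 1307 by DESeq2, and WT at CT10 holds the 3 lowest inner retina levels of all libraries.

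The 7 genes named here for the smallest p in this test shared a shape, in that WT at CT10 stood apart from WT at the other times. Genes picked by this test must depart at CT10 in at least 1 genotype, so the shape describes the pick and adds no separate result. Dip2b (chromosome 15, 100038664 to 100219473) had mean CPM of 105, 119, 98.2 and 94.9 in KO at CT1, CT10, CT19 and CT22, against 136, 77.0, 154 and 153 in WT. Pdzph1, a PDZ-domain gene, had mean CPM of 263, 247, 238 and 304 in KO at CT1, CT10, CT19 and CT22, against 254, 570.1, 215 and 214 in WT. Acadm had mean CPM of 63.5, 65.7, 65.4 and 61.7 in KO at CT1, CT10, CT19 and CT22, against 65.5, 129, 55.5 and 56.8 in WT. In each the KO means varied less over the 4 times than the WT means, while the WT mean at CT10 lay outside the range of its other 3 means. The departures were 1.20 (SE 0.12, adjusted p = 7.68e-07), -1.44 (SE 0.17, adjusted p = 1.82e-05) and -1.07 (SE 0.13, adjusted p = 1.82e-05). The libraries at CT10 enter both the difference at CT10 and this test, so the values of a gene in both are not independent.

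Drd4 had mean CPM of 660.4, 580.2, 679 and 686 in KO at CT1, CT10, CT19 and CT22, against 717, 329, 820.2 and 697 in WT. Nr4a1 had mean CPM of 69.1, 61.1, 58.3 and 80.4 in KO at CT1, CT10, CT19 and CT22, against 82.8, 21.2, 110.5 and 124 in WT. The WT mean at CT10 lay below its own other times in both. Their departures were 0.96 (SE 0.12, adjusted p = 2.77e-05) and 2.13 (SE 0.27, adjusted p = 4.99e-05). The other 3 genes were the cell cycle factor E2f3 (1.01, SE 0.12, adjusted p = 1.82e-05), the translation inhibitor Pdcd4 (-0.72, SE 0.09, adjusted p = 2.51e-05) and the cochaperone Dnajb2 (0.74, SE 0.09, adjusted p = 2.59e-05). At CT10 itself Dip2b was higher (log2 fold change 0.63, SE 0.10, adjusted p = 0.000168), as were E2f3 (log2 fold change 0.62, SE 0.11, adjusted p = 0.000298) and Dnajb2 (log2 fold change 0.32, SE 0.08, adjusted p = 0.0107), while Pdzph1 (log2 fold change -1.20, SE 0.15, adjusted p = 3.42e-06) and Pdcd4 (log2 fold change -0.39, SE 0.08, adjusted p = 0.00149) were lower. None of these 5 was called at CT10 with both covariates.

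**Figure D5:**
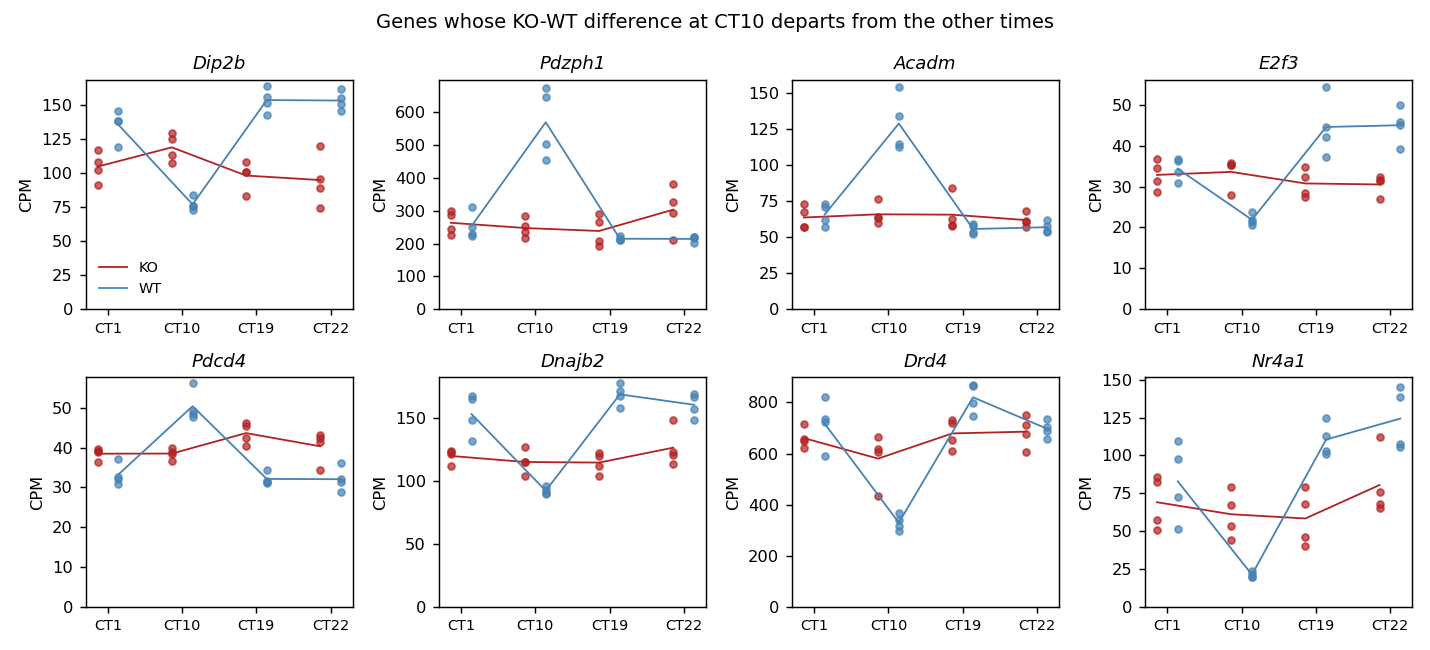
CPM at CT1, CT10, CT19 and CT22 in KO (red, left) and WT (blue, right), 4 libraries each, with lines through the means, for 7 genes named for the smallest p for a departure at CT10 and for Nr4a1. In every panel the WT points at CT10 lie apart from the WT means of the other times, for example 21.2 CPM in Nr4a1, while the KO means change less.

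By list, beside 2.02% upward and 2.32% downward of all genes, the departure was called for 9 of 28 dopamine and cAMP genes (7 upward, 2 downward), 6 of 18 immediate early genes (all upward), 6 of 23 ribbon synapse genes (3 upward, 3 downward) and 7 of 19 bipolar markers (all upward). It was called for 5 of 24 unfolded protein genes and 3 of 20 autophagy and lysosome genes, all upward, and for 3 of 15 photoreceptor transcription factors, 3 of 22 cholesterol genes and 3 of 24 clock genes, each with 2 upward and 1 downward. Every other list had 2 or fewer. Rcvrn, recoverin, a calcium sensor of rods, was not called at CT10 by edgeR over all libraries (log2 fold change 0.39, SE 0.14, adjusted p = 0.0637). It was called in the 8 CT10 libraries alone (0.40, adjusted p = 0.0131), under rod and cone scaling (0.62, adjusted p = 0.000922) and by DESeq2 (0.39, adjusted p = 0.0365). Rod and cone scaling raises log2 fold changes at CT10 by its own setting. It departed from the other times by 0.81 (SE 0.16, adjusted p = 0.00267), with KO means near 1823 to 1895 CPM at all times and a WT mean of 1402 CPM at CT10, against 2284 to 2671 CPM at the other times. Akap5 departed downward (-1.42, SE 0.24, adjusted p = 0.000687), and its WT mean was 3.75 CPM at CT10, against 1.45 to 1.67 CPM at the other times. Of the clock genes 3 departed, Per2 by 0.72 (SE 0.20, adjusted p = 0.0376), Rorb by 0.56 (SE 0.14, adjusted p = 0.0199) and Dbp by -0.48 (SE 0.14, adjusted p = 0.0485). Per2 had a WT mean of 21.1 CPM at CT10, against 30.6 to 36.2 CPM at the other times, and Dbp a WT mean of 48.5 CPM, against 36.0 to 39.1 CPM. The other 21 clock genes were not called for a departure.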

How the data were processed

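Per the labels' protocols, Qiagen RNeasy Micro served for RNA extraction and KAPA mRNA HyperPrep for library preparation. The deposited values were raw counts of reads for 54232 Ensembl genes. The submitters' processing notes name Trimmomatic 0.32, HISAT2 2.1.0, HTSeq 0.11, Cufflinks and the build GRCm38.p6. The sources used here give neither their order nor the strand setting or annotation. Symbols, positions and overlapping exons came from GENCODE M21 (99.7% of identifiers matched), with bedtools 2.31.1.

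From these, edgeR 4.0.16 (R 4.3.3) was fitted to all 32 libraries as 8 group means (24 residual degrees of freedom) after filterByExpr (minimum count 10, minimum total 15) and TMM, with the robust quasi-likelihood test, two-sided. Standard errors are the absolute log2 fold change over the square root of F. Library totals were 23833604 to 34582742 counts. The scripts were tested on simulated data. Marker levels are means of log2 CPM with a prior count of 2. Named genes were all clock genes, the 10 highest and 10 lowest called genes, the same among genes called with both covariates that followed neither level, the 8 smallest p for the CT10 difference against the other times, and up to 6 per list by p. Outside the lists a mean log2 CPM of 1 and an established symbol were required. Some genes that these rules pick are not reported here by name, a few others are given only in counts, and Gm10605 only as an overlapping gene. Members, lists and rules were chosen with earlier results of these data known. DESeq2 1.42.0 and limma-voom (limma 3.58.1) were alternatives.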

Additional observations from a re-analysis of the deposited data

Results flagged for a closer look

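In 16 of 282 groups of 4 libraries tested (5.67%, where chance gives about 5%) 1 library stood apart from the other 3. In KO these were Per2 in replicate 3 (184 CPM), Col5a3 in replicate 3 (1.48 CPM), E2f3 in replicate 2 (28.1 CPM), Glul in replicate 4 (741 CPM) and the Müller glia level in replicate 4 (4.97 on the log2 CPM scale). In WT replicate 1 they were Rora (562 CPM), Reln (7.03 CPM), Fabp7 (1.63 CPM) and Pdcd4 (56.3 CPM). In WT replicate 2 they were Cry2 (49.4 CPM), Lrit2 (497 CPM), Me1 (202 CPM) and Nyx (1.95 CPM). In WT replicate 4 it was Arntl (154 CPM), and in WT replicate 5 they were Bfsp2 (67.0 CPM) and Ier2 (26.4 CPM).

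The genotype difference at CT10 departed from the mean of the other 3 times in 44 named genes, by edgeR's test of the difference itself. Values are log2 departures. Clock genes were Per2 (0.72), Rorb (0.56) and Dbp (-0.48). Genes with extreme fold changes or kept with both covariates were Tpbgl (2.52), Slc7a14 (1.57), Kif4 (-2.40), Lynx1 (-2.05), Txndc16 (0.56), Itpr2 (-0.98) and Ammecr1 (-0.54). The genes with the smallest p were Dip2b (1.20), Pdzph1 (-1.44), Acadm (-1.07), E2f3 (1.01), Pdcd4 (-0.72), Dnajb2 (0.74) and Drd4 (0.96).

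Photoreceptor genes were Rcvrn (0.81), Rims2 (-0.81), Cacnb2 (-0.35), Snap25 (0.38) and Casz1 (0.62). Dopamine and cAMP genes were Akap5 (-1.42), Pde8b (0.69), Adcy8 (1.98), Prkar1b (0.76), Drd2 (1.23), Drd1 (1.37), Pde10a (1.71) and Adcy1 (-0.84). Immediate early genes were Nr4a1 (2.13), Junb (0.93), Fos (1.79), Dusp1 (0.99) and Ier2 (1.07). Metabolic and unfolded protein genes were Cpt1a (-0.72), Me1 (-0.56), Sdf2l1 (0.85), Ddit3 (0.48), Xbp1 (0.76) and Manf (0.64). Markers of other cells were Grm6 (1.77), Apoe (0.89) and Cldn5 (2.35).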

How the results depend on the processing

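Of 1825 genes called at CT10, the count was 3157 with rod and cone scaling (3008 higher, 149 lower), 220 with the inner retina covariate and 50 with both covariates, and ranged over 946 to 1761 on leaving out 1 library. It stayed within 1.5 times under the other alternatives: 1347 with no filter on low counts, 2244 in the 8 CT10 libraries alone, 1917 with the lens covariate, 2237 by DESeq2, 1937 by limma-voom, 1803 with RLE size factors and 1806 with a CPM filter. Of 775 genes in the difference against the other times, 498 were called with rod and cone scaling, 434 with no filter, 341 with the inner retina covariate (52.2% higher), 45 with both covariates and 1307 by DESeq2, and 404 to 885 without 1 library. Replicate numbers did not pair the libraries (correlations of same-numbered deviations -0.02, 0.00 and -0.06); with a replicate block 1963 and 909 genes were called, and Bfsp2, Tfeb and Crygn lost their call. Signs turned for Clock (0.11), Rora (0.13) and Csnk1d (0.14) under rod and cone scaling, for Axl (-0.09), Lrp1 (-0.18) and Glul (-0.22) with the inner retina covariate, and for Cx3cl1 (-0.19), Lrp1 (-0.12) and Glul (-0.12) with both; the cause was not tested. Of 105 named genes called at CT10, 28 kept call and direction under every alternative, 29 lost the call without 1 library, and 43 and 28 kept call and direction with the inner retina and with both covariates. The covariates move with genotype and widen the standard errors, and 4 libraries a group limit small changes.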
